A study of Mus musculus with 6 samples.

Results

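Aminoacyl-tRNA synthetases join each amino acid to its transfer RNA (tRNA), and 35 of their genes were followed in mouse tumours injected with PV-10 or with saline. They were the protein-coding rows of the deposited gene tables that carried the symbols of 19 cytosolic enzymes and of 16 mitochondrial enzymes, whose symbols end in 2. All 35 symbols had 1 row each among the 55450 genes of the table, and all 35 were among the 22056 genes with enough counts to be tested. The tumours grew under the skin of the right flank of C57BL/6 mice from MTE-RAS cells, a cancer line from mouse tracheal epithelium that carries a transforming oncogenic RAS mutation. PV-10, a solution of the dye rose bengal, was injected into the lesion in 3 tumours, and phosphate-buffered saline (PBS) was injected in the same way in the other 3. All 6 tumours thus shared the cell line, the RAS mutation, the host strain and an injection, and each still held cells of the host. The dose and the time between injection and collection are not given in the sources used here.

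A synthetase activates its amino acid with ATP and transfers it to the matching tRNA, which the ribosome then reads against the messenger RNA. Mitochondria make the few proteins encoded by their own genome, and need their own charged tRNAs, so most amino acids have a cytosolic enzyme and a separate nuclear-encoded mitochondrial enzyme, while glycyl- and lysyl-tRNA synthetase (Gars and Kars) serve both compartments from 1 gene each. In the cytosol several synthetases, Eprs, Iars, Lars, Qars, Rars, Kars and Dars among them, sit in the multisynthetase complex around the scaffold proteins Aimp1, Aimp2 and Eef1e1. Uncharged tRNA activates the eIF2 kinase Eif2ak4 (GCN2), and the transcription factor ATF4, which is translated when eIF2 is phosphorylated, is known to act on many cytosolic synthetase genes and on genes of amino acid synthesis and uptake.

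The promoters of the genes are shown for the element by which ATF4 and C/EBP proteins are known to bind together, because 11 of the 19 cytosolic genes were listed, from general knowledge, as ATF4 targets. RefSeq promoter windows on build GRCm38.p6, from 250 bases before to 50 bases after the start of the gene, were found for 26 of the 35 genes, 12 cytosolic and 14 mitochondrial. The element was searched as TGATGNAA on both strands. It was present in 5 of the 12 cytosolic windows, those of Yars, Gars, Aars, Iars and Tars, in 0 of the 14 mitochondrial windows, and in 3.97% of all 32851 windows. Each 30-base stretch below is written on the strand of its gene, with the element or its reverse complement in capitals.
Yars, chr4:129189895-129189924, plus strand: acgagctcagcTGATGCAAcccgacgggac
Gars, chr6:55037960-55037989, plus strand: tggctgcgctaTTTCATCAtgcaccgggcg
Aars, chr8:111033840-111033869, plus strand: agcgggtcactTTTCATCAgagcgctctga
Iars, chr13:49682126-49682155, plus strand: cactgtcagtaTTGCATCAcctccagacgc
Tars, chr15:11399655-11399684, minus strand: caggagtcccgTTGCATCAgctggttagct
In the Aars stretch shown the element began at base 10 from the RefSeq start of the gene, and in Gars it began 30 bases before that start. Gencode M21 places the starts of Aars and Yars further upstream, at 111033144 on chromosome 8 and 129189760 on chromosome 4. The E-box CACGTG was present in the windows of Farsb, Ears2, Aars, Iars and Tars, beside 7.15% of all windows, and the stretch TTCNNNGAA in those of Nars2, Aars and Kars, beside 8.3%. The cyclic-AMP response element TGACGTCA was present in 0 of the 26, beside 1.79%. A match describes these letters only and is not a measured binding site.

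Counts summed to 60082066, 36730318 and 94203331 in PV-10 tumours 1, 2 and 3, and to between 87386266 and 98717951 in the PBS tumours. Changes below are log2 changes of PV-10 over PBS from edgeR's quasi-likelihood test on the counts, adjusted by Benjamini-Hochberg over all 22056 genes and called at an adjusted p under 0.05. Of those genes, 423 (1.92%) were called lower and 699 (3.17%) higher in PV-10 tumours. PV-10 tumour 3 stood apart from its group: across genes its log2 levels correlated at 0.909 to 0.930 with the PBS tumours, against 0.874 and 0.822 with PV-10 tumours 1 and 2. Long transcripts were also less represented in the PV-10 libraries. Each doubling of effective transcript length went with a log2 CPM (counts scaled to library size) difference of -0.282, -0.232 and -0.0367 in PV-10 tumours 1, 2 and 3, against 0.164 to 0.201 in PBS tumours. The epithelial keratins Krt8 and Krt18 were abundant in all 6 tumours, while Epcam was at most 1.31 CPM in any of them and at 0 in PBS tumour 1. In length-scaled TPM the median of the 7 epithelial markers was 0.8 to 1.12 in PV-10 and 1.99 to 2.53 in PBS tumours. Their sum was 153.9 to 298 TPM in PV-10 and 349.2 to 423.9 TPM in PBS tumours, and was thus carried by the more abundant of them. Of 47 marker genes tested for 9 cell types, 0 were called by edgeR, beside 5.09% of all genes. At an unadjusted p under 0.05 there were 14 of the 47, beside 6627 of all 22056 genes. DESeq2 called 9 of these 47, where it called 30.3% of all genes. Summed over each list, epithelial markers (7 genes) ranged over 508.1 to 694 CPM in PV-10 tumours and 520.3 to 865 CPM in PBS tumours. Macrophage markers (7 genes) ranged over 983 to 1274 CPM in PV-10 and 1127 to 1787 CPM in PBS tumours. Endothelial markers (5 genes) ranged over 103 to 335 CPM in PV-10 and 185 to 372 CPM in PBS tumours. Fibroblast markers (6 genes) ranged over 2024 to 3537 CPM in PV-10 and 1917 to 4115 CPM in PBS tumours. T cell markers (5 genes) ranged over 9.41 to 55.4 CPM in PV-10 tumours, highest in tumour 3, and 8.31 to 27.6 CPM in PBS tumours. Neutrophil markers (4 genes) ranged over 5.26 to 13.6 CPM in PV-10 and 7.29 to 10.7 CPM in PBS tumours. B and plasma cell markers (5 genes, Mzb1 at 0 in all tumours) ranged over 3.56 to 5.15 CPM in PV-10 and 0.703 to 1.55 CPM in PBS tumours, without overlap. Adipocyte markers (5 genes, of which 1 to 4 were at 0 in each tumour) ranged over 7.36 to 19.1 CPM in PV-10 and 3.31 to 6.36 CPM in PBS tumours, also without overlap. Skeletal muscle markers (6 genes) were highest in PV-10 tumours 1 and 2, at 64.5 and 284 CPM, against 4.58 CPM in PV-10 tumour 3 and 4.01 to 36.3 CPM in PBS tumours. The part of these cells and of transcript length in the values below was not tested, beyond the fits named for it.

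Messenger RNA for most cytosolic synthetases was lower in PV-10 tumours, and 2 of the 19 genes passed the test. These were Eprs, the fused glutamyl- and prolyl-tRNA synthetase, and Vars, the valyl-tRNA synthetase, both lower (10.5% of the list, against 1.92% of all genes). Among the genes with a mean count of at least 50, 2 of the 19 were called lower, beside 7.04% of those genes. Among protein-coding genes alone 3 of the 19 were, beside 7.77%. None of the 19 was called higher by edgeR, and DESeq2 called 8 lower and 1, Dars, higher, where it called 8.63% of all genes lower and 21.7% higher. The log2 change was below 0 for 17 of the 19, the exceptions being Dars and Sars, which were below 0 on both TPM scales, while 41.5% of all genes tested had a change below 0. The median change was -0.652 over the cytosolic genes, against 0.303 over all genes. Before adjustment, 10 of the 19 were lower and 1 higher at p under 0.05, beside 14.5% and 15.6% of all genes. In TMM-scaled CPM every PV-10 tumour lay below every PBS tumour for 12 of the 19, and above for 1, Dars, beside 16.8% and 22% of all genes. In bulk tumour RNA fewer cells of a type cannot be told apart from less RNA per cell.

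**Figure D1:**
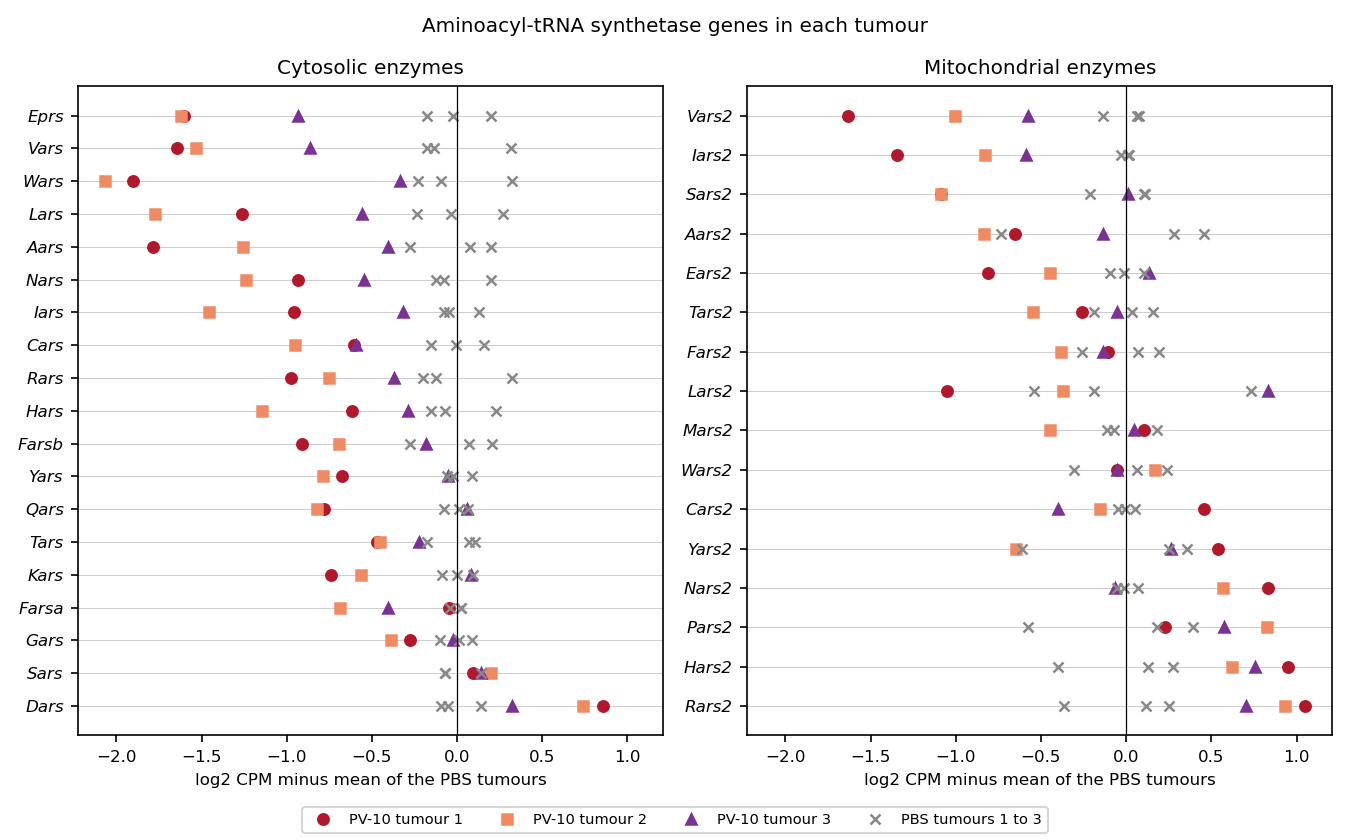
Log2 CPM of each synthetase gene in each tumour, minus the mean of the PBS tumours, for 19 cytosolic genes (left) and 16 mitochondrial genes (right), ordered by the log2 change. PV-10 tumours 1, 2 and 3 are coloured points and the PBS tumours are grey crosses, and for most cytosolic genes PV-10 tumour 3 lies between the other PV-10 tumours and the PBS tumours.

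Eprs had 65.3, 64.7 and 104 CPM in PV-10 tumours 1, 2 and 3, against 176, 196 and 228 CPM in PBS tumours 1, 2 and 3. The groups did not overlap, and PV-10 tumour 3 was the nearest to PBS. Its log2 change was -1.36 ± 0.29 (SE, n = 3 tumours each, edgeR adjusted p = 0.0443). Vars had 34.6, 37.3 and 59.3 CPM in PV-10 tumours, against 98.2, 95.4 and 134 CPM in PBS tumours. All PV-10 values were again below all PBS values. The log2 change of Vars was -1.32 ± 0.31 (SE, n = 3 each, edgeR adjusted p = 0.0467). Both genes were called in 13 of 21 other ways of processing. With each library's trend on effective transcript length removed, the change of Eprs was -0.79 and that of Vars -1.31, and neither was called.

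Apart from Eprs, the complex members had changes from -1.13 to 0.65, and none was called. Lars, the leucyl enzyme, had 20.1, 14.1 and 32.8 CPM in PV-10 tumours, against 41.0, 47.0 and 58.1 CPM in PBS tumours, a log2 change of -1.13 ± 0.34 (SE, n = 3 each, edgeR adjusted p = 0.0689). Iars, the isoleucyl enzyme, had 107, 76.0 and 167 CPM in PV-10 tumours, against 227, 197 and 201 CPM in PBS tumours, a log2 change of -0.84 (edgeR adjusted p = 0.120). Rars, the arginyl enzyme, had 44.3, 51.5 and 67.4 CPM in PV-10 tumours, against 79.8, 75.8 and 109 CPM in PBS tumours, a log2 change of -0.70 (edgeR adjusted p = 0.134). For all 3 genes the groups did not overlap. Qars (glutaminyl) and Kars overlapped, with changes of -0.46 and -0.36, and PV-10 tumour 3 lay inside the PBS range for both.

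Dars, the aspartyl enzyme of the complex, went the other way in counts. It had 142.7, 131.5 and 98.7 CPM in PV-10 tumours, against 76.1, 74.0 and 87.0 CPM in PBS tumours, so that all PV-10 tumours were above all PBS tumours. Its log2 change of 0.65 ± 0.26 was not called (SE, n = 3 each, edgeR adjusted p = 0.129). In the length-scaled TPM (transcript abundance) of the deposited table Dars had 29.3, 29.3 and 29.9 TPM in PV-10 tumours, against 26.9, 37.04 and 37.6 TPM in PBS tumours, and the groups overlapped. The direction of Dars thus depended on the scale: on log2(TPM + 1) its change was -0.18, beside a median of -0.213 over all genes. The 7 complex genes had a median change of -0.70 and the 12 cytosolic genes outside the complex one of -0.61, with 1 gene called in each.

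Outside the complex, the largest change after Vars was that of Wars, the tryptophanyl enzyme. Wars had 12.7, 11.3 and 37.7 CPM in PV-10 tumours, against 40.5, 44.5 and 59.4 CPM in PBS tumours, a log2 change of -1.23 ± 0.46 (SE, n = 3 each, edgeR adjusted p = 0.108). PV-10 tumours 1 and 2 were far below the PBS tumours, while PV-10 tumour 3 lay just under PBS tumour 1. Wars is also known in human cells as a gene induced by interferon gamma. In sum over the 14 interferon-gamma response genes the levels were 163, 304 and 757 CPM in PV-10 tumours, against 513, 308 and 484 CPM in PBS tumours. PV-10 tumour 1 had the lowest sum and PV-10 tumour 3 the highest, and the part of that response in the level of Wars was not tested.

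Aars, the alanyl enzyme, had 46.3, 66.8 and 120.3 CPM in PV-10 tumours, against 132, 168 and 183 CPM in PBS tumours, with no overlap. Its log2 change was -1.05 ± 0.37 (SE, n = 3 each, edgeR adjusted p = 0.0933). Of the exon bases of Aars, 14.3% are also annotated to Exosc6 on the same strand, which leaves its level uncertain to that extent. Nars, the asparaginyl enzyme, had 72.7, 58.7 and 95.1 CPM in PV-10 tumours, against 159, 127 and 132 CPM in PBS tumours, a log2 change of -0.88 (edgeR adjusted p = 0.0741). Cars, the cysteinyl enzyme, had 49.3, 38.8 and 49.7 CPM in PV-10 tumours, against 84.0, 67.5 and 74.9 CPM in PBS tumours, a log2 change of -0.72 (edgeR adjusted p = 0.0928). For Cars PV-10 tumour 3 was as low as PV-10 tumour 1, unlike most of the other cytosolic genes. The remaining genes outside the complex, Hars (histidyl), Farsb and Farsa (the phenylalanyl subunits), Yars (tyrosyl), Tars (threonyl), Gars and Sars (seryl), had changes from -0.65 to 0.14, and none was called. Sars was the steadiest, with 138, 149 and 143 CPM in PV-10 tumours and 124, 143 and 123 CPM in PBS tumours.

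The groups were compared on the scale per length as well. In deposited TPM every PV-10 tumour lay below every PBS tumour for 18 of the 19 cytosolic genes, all but Dars, beside 31% of all genes tested, and above for none, beside 9.58%. Summed over the 19 genes, cytosolic synthetase RNA came to 235.6, 243.5 and 431 TPM in PV-10 tumours, against 583, 747 and 755 TPM in PBS tumours. PV-10 tumours 1 and 2 were alike and PV-10 tumour 3 lay between them and the PBS tumours. Kars had the highest mean TPM of the 19 in both groups, at 38.1 ± 21.0 TPM in PV-10 tumours and 79.6 ± 11.8 TPM in PBS tumours (SD, n = 3 each). Farsa had the lowest, at 3.37 ± 1.18 TPM in PV-10 tumours and 7.82 ± 0.85 TPM in PBS tumours (SD, n = 3 each). In PV-10 tumours Kars was followed by Sars at 35.5 ± 5.17 TPM and Qars at 32.2 ± 13.4 TPM (SD, n = 3), closer together than the spread between tumours.

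The 11 cytosolic genes listed as ATF4 targets had a median change of -0.84 with 1 called (Eprs), and the other 8 had a median of -0.52 with 1 called (Vars). The order of these medians was the same under 19 of 21 other ways of processing and turned under the removal of length trends, where the medians were -0.63 for the listed and -0.79 for the other genes with effective length, and -1.06 and -1.09 with length and GC content. Of the 5 genes with the ATF4 and C/EBP element in the window shown, Aars and Iars had changes of -1.05 and -0.84, and Yars, Tars and Gars of -0.47, -0.38 and -0.23.

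The 16 mitochondrial synthetases showed no common direction in counts. None was called by edgeR, beside 5.09% of all genes. At an unadjusted p under 0.05, 2 were lower and 2 higher, beside 14.5% and 15.6% of all genes. DESeq2 called 4, where it called 30.3% of all genes. Changes were below 0 for 9 genes and above 0 for 7, and the median was -0.0859, against -0.652 for the cytosolic and 0.303 for all genes. In CPM the groups overlapped for 12 of the 16. All PV-10 tumours were below all PBS tumours for Iars2 and Vars2, and above for Rars2 and Hars2, beside 16.8% and 22% of all genes. Per length they were mostly lower: in TPM 9 of the 16 lay wholly below the PBS tumours and 0 above, beside 31% and 9.58% of all genes. On both TPM scales 14 of the 16 had a change below 0, beside 62.8% of all genes on log2(TPM + 1) and 62.5% on log2(TPM + 0.1). With length and GC trends removed from the counts 15 of the 16 did, beside 59.2% of all genes.

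Vars2, the mitochondrial valyl enzyme, had 5.20, 8.05 and 10.9 CPM in PV-10 tumours, against 17.0, 14.7 and 16.9 CPM in PBS tumours, a log2 change of -1.01 ± 0.32 (SE, n = 3 each, edgeR adjusted p = 0.0728). Iars2, the mitochondrial isoleucyl enzyme, had 27.9, 39.9 and 47.0 CPM in PV-10 tumours, against 69.3, 71.6 and 71.3 CPM in PBS tumours, a log2 change of -0.89 ± 0.27 (SE, n = 3 each, edgeR adjusted p = 0.0705). The PBS tumours differed little in Iars2, and the PV-10 tumours spread more widely below them. Of the exon bases of Iars2, 22.9% are shared with Rab3gap2 on the opposite strand. The libraries were strand-specific, and whether counting used the strand is not given in the sources used here.

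Rars2, the mitochondrial arginyl enzyme, was higher in counts, with 31.5, 29.0 and 24.8 CPM in PV-10 tumours, against 16.5, 11.8 and 18.1 CPM in PBS tumours. Its log2 change was 0.88 ± 0.27 (SE, n = 3 each, edgeR adjusted p = 0.0684). Hars2, the mitochondrial histidyl enzyme, had 14.3, 11.4 and 12.5 CPM in PV-10 tumours, against 5.604, 8.94 and 8.09 CPM in PBS tumours, a log2 change of 0.76 ± 0.29 (SE, n = 3 each, edgeR adjusted p = 0.112). For both genes PV-10 tumour 3 sat with its own group. Neither held apart in TPM: Rars2 averaged 9.83 ± 1.73 TPM in PV-10 tumours and 9.37 ± 3.00 TPM in PBS tumours, and Hars2 averaged 3.25 ± 0.61 TPM in PV-10 tumours and 2.95 ± 1.27 TPM in PBS tumours (SD, n = 3 each). With length and GC trends removed the change of Rars2 was -0.087, beside a median of -0.297 over all genes. Hars2 and Hars lie head to head on chromosome 18 and share 195 exon bases on opposite strands, so reads from that stretch may be split between them.

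**Figure D2:**
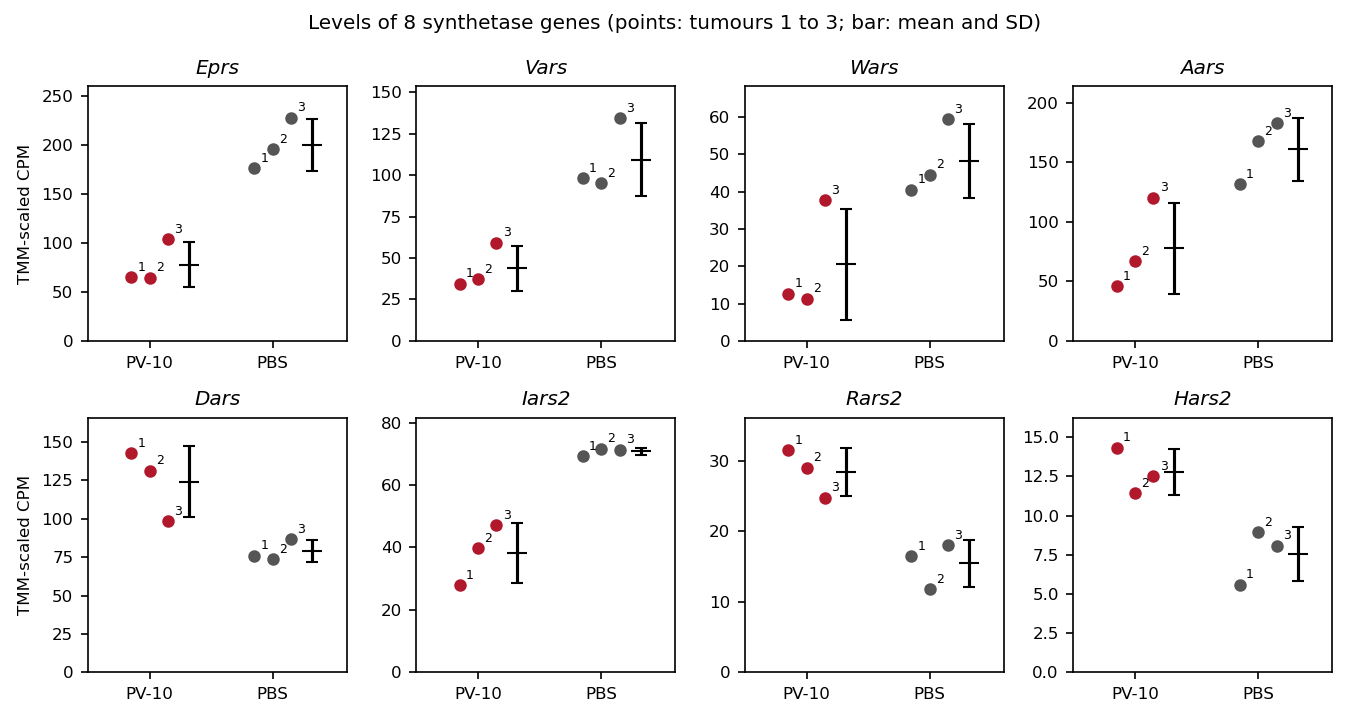
TMM-scaled CPM of 8 synthetase genes in PV-10 tumours (left, red) and PBS tumours (right, grey), with tumour numbers beside the points and the mean and SD as bars. Eprs, Vars, Wars, Aars and Iars2 were lower in every PV-10 tumour, and Dars, Rars2 and Hars2 were higher in every PV-10 tumour on this scale, though their groups overlapped in TPM.

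Lars2, the mitochondrial leucyl enzyme, was by far the most abundant mitochondrial member per length and the most variable. It had 22.8, 40.2 and 123 TPM in PV-10 tumours, against 70.1, 75.9 and 163 TPM in PBS tumours. Tumour 3 was the highest of its group in each, and the groups overlapped. Lars2 alone made up 34.8%, 50.9% and 68.8% of the summed mitochondrial synthetase TPM in PV-10 tumours, against 50.1%, 48.1% and 65.4% in PBS tumours. Its log2 change was -0.09 ± 0.50 (SE, n = 3 each) and ranged over -0.77 to 0.35 with 1 tumour left out. The other mitochondrial genes, Aars2, Cars2, Ears2, Fars2, Mars2, Nars2, Pars2, Sars2, Tars2, Wars2 and Yars2, had changes from -0.63 for Sars2 to 0.51 for Pars2, with groups that overlapped in CPM for all 11.

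The enzymes of 1 amino acid in the cytosol and in mitochondria could be set side by side for 12 amino acids. The mitochondrial change was above the cytosolic one in 10 of 12, with a median difference of 0.64 and a range of -0.77 to 1.58. The exceptions were isoleucine, at -0.05, and serine, at -0.77. In TPM the PV-10 ratios of mitochondrial to cytosolic enzyme lay above all PBS ratios for 6 of the 12 amino acids. They overlapped with them for the other 6, those of Aars, Iars, Lars, Sars, Tars and Vars. Among all single genes tested, 31% lay wholly below the PBS tumours in TPM and 9.58% wholly above. How often the ratios of other gene pairs lay apart was not counted, so the 6 have no share to stand beside. For valine the ratio of Vars2 to Vars was 0.168, 0.123 and 0.123 in PV-10 tumours, against 0.173, 0.199 and 0.0776 in PBS tumours. The widest gap in counts was that of arginine, where the ratio of Rars2 to Rars in TPM was 1.06, 0.659 and 0.533 in PV-10 tumours, against 0.234, 0.210 and 0.257 in PBS tumours. For histidine the ratio of Hars2 to Hars was 0.702, 0.641 and 0.287 in PV-10 tumours, against 0.121, 0.216 and 0.161 in PBS tumours. In both pairs every PV-10 ratio lay above every PBS ratio. For asparagine the ratio of Nars2 to Nars was 0.0839, 0.0817 and 0.0433 in PV-10 tumours, against 0.0316, 0.0324 and 0.0256 in PBS tumours. For tryptophan the ratio of Wars2 to Wars was 0.970, 0.450 and 0.161 in PV-10 tumours, against 0.130, 0.158 and 0.122 in PBS tumours, with PV-10 tumour 3 just above the PBS tumours. Summed over all members, mitochondrial synthetase TPM stood to cytosolic TPM as a ratio of 0.278, 0.325 and 0.416 in PV-10 tumours, against 0.240, 0.211 and 0.331 in PBS tumours, and the groups overlapped. Without Lars2, summed mitochondrial synthetase TPM stood to summed cytosolic TPM as a ratio of 0.181, 0.159 and 0.130 in PV-10 tumours, against 0.120, 0.110 and 0.115 in PBS tumours, without overlap. These ratios are descriptions without a test, and with the effective length trend removed the mitochondrial change was above the cytosolic one in 8 of 12 pairs, with a median difference of 0.43.

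**Figure D3:**
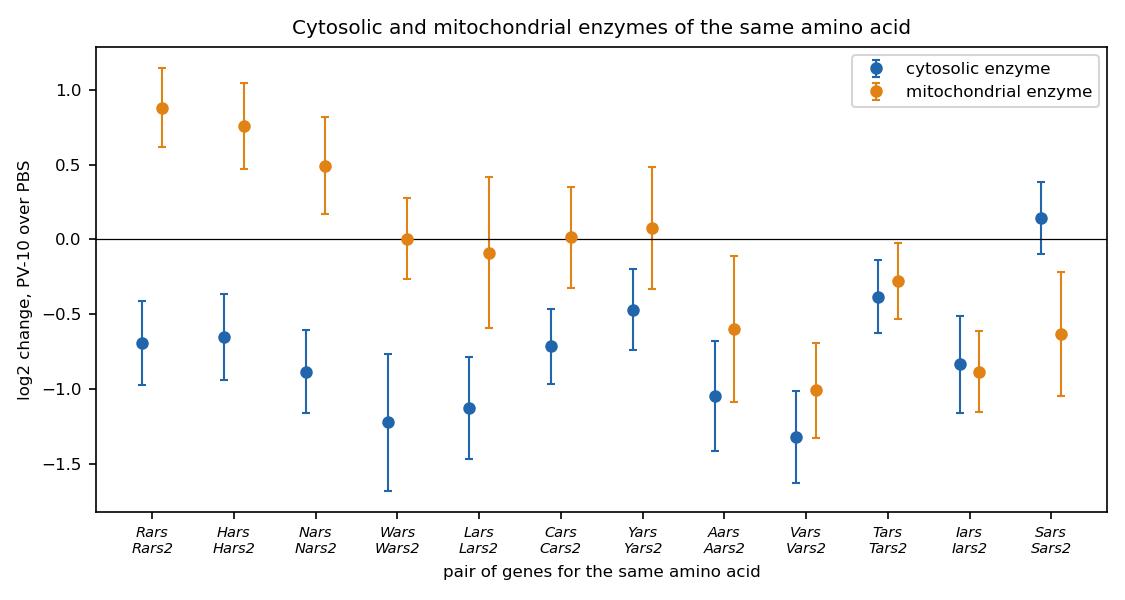
Log2 change of PV-10 over PBS for the cytosolic (blue) and mitochondrial (orange) enzyme of the same amino acid, with the SE as bars, ordered by the difference of the 2 changes. The mitochondrial value lies above the cytosolic one in 10 of the 12 pairs, by most for Rars2 and Rars, and below it for Iars2 and Sars2.

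The number of synthetases called depended on which tumours were included. Relative to the PBS mean, the median log2 level of the cytosolic genes was -0.78, -0.82 and -0.32 in PV-10 tumours 1, 2 and 3, against -0.05, -0.08 and 0.09 in PBS tumours 1, 2 and 3. Of the 19 cytosolic genes, 17, 17 and 15 lay below the PBS mean in PV-10 tumours 1, 2 and 3. In PBS tumours 1, 2 and 3 these counts were 11, 16 and 5, so the count alone did not separate the groups. Of all 22056 genes, 9001, 9796 and 10368 lay below the PBS mean in PV-10 tumours 1, 2 and 3. Without PV-10 tumour 3, edgeR called 15 cytosolic genes lower and 1 (Dars) higher, and 3 mitochondrial genes lower (Iars2, Vars2 and Sars2) and 1 (Rars2) higher. The 20 of 35 called then stand beside 41.4% of all genes called, of which 16.4% were lower and 25% higher. Wars had the largest change in that fit, -2.00 (edgeR adjusted p = 0.000888), and Eprs and Vars had -1.62 and -1.60. With any 1 of the other 5 tumours left out, edgeR called 0 of the 35, with 7 to 12 of them at an unadjusted p under 0.05. These were 8 and 7 without PV-10 tumour 1 or 2, beside 4804 of 22750 and 4614 of 23772 genes tested. They were 9, 12 and 9 without PBS tumour 1, 2 or 3, beside 6851 of 28118, 6378 of 27730 and 6039 of 28048. These fits called next to nothing in the whole table: 0.00879% and 0.021% of all genes without PV-10 tumour 1 or 2, and 0.00356%, 0.00721% and 0.00357% without PBS tumour 1, 2 or 3. The calls of Eprs and Vars were thus lost without PV-10 tumour 1 or 2 and without any PBS tumour, while their changes stayed between -1.47 and -1.23 for Eprs and between -1.44 and -1.16 for Vars. PV-10 tumour 3 alone had a cytosolic median of -0.31 against the PBS tumours. In that fit the spread came from the PBS tumours only, the lone tumour being assumed to vary like them, and 0 of the 35 and 0.0749% of all genes were called, with 6 of the 35 at an unadjusted p under 0.05.

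The cytosolic median lay below the median of all genes, and below the mitochondrial median, under each of the 21 other ways of processing. The median of all genes moved with the genes admitted and with the scale, so medians are best read against it. On the same 22056 genes it was 0.303 with TMM, 0.428 with RLE scaling, 0.212 with library size alone and -0.427 on log2(TPM + 0.1). It was 1.84 with DESeq2, over all genes given a p-value, of which 27077 also had an adjusted one. It was 1.63 with no filter, which tested 39195. It was 0.0625 over the 15787 genes with a mean count of at least 50, and 0.199 over 16171 protein-coding genes. In these fits the cytosolic median minus that of all genes was -0.565 and -0.727. The mitochondrial median minus that of all genes was -0.0082 and -0.17 there, against -0.389 with the main scaling. The cytosolic median minus that of all genes was -0.955 with the main scaling and ranged from -2.4 with DESeq2 to -0.292 with PV-10 tumour 3 alone. The mitochondrial minus the cytosolic median was 0.566 and ranged from 0.29 to 0.718. The longest transcripts of the cytosolic genes had a median of 3066 bases, those of the mitochondrial genes 3490 and those of all genes 2931, and the median GC content was 49.4%, 49.3% and 48.6%. With the effective length trend removed no gene of 16912 tested was called. In that fit 16 of the 35 synthetases had an unadjusted p under 0.05, beside 4591 of the 16912 genes. The medians were -0.776 for cytosolic, -0.144 for mitochondrial and -0.0972 for all genes.

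**Figure D4:**
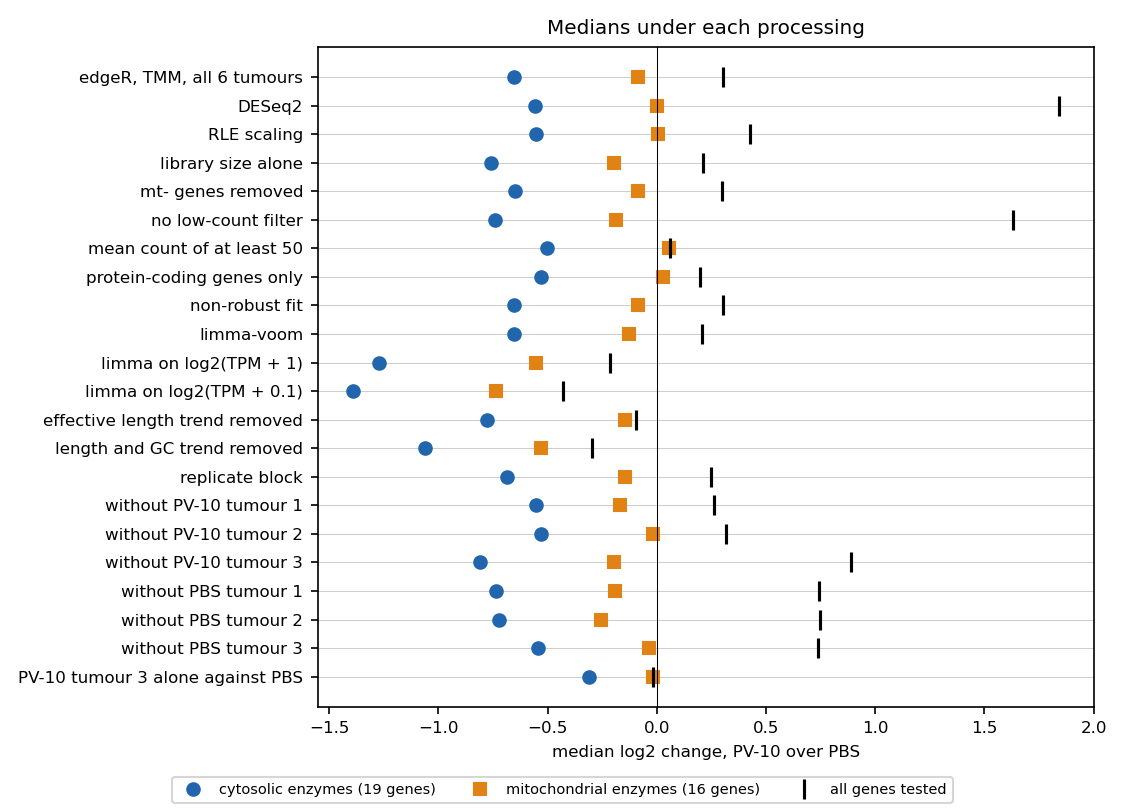
Median log2 change of PV-10 over PBS for cytosolic synthetases (blue circles), mitochondrial synthetases (orange squares) and all genes tested (black bars), under the main test (top) and 21 alternatives. The cytosolic median is the lowest of the 3 in each of them, between -1.39 and -0.308.

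The scaffold proteins of the multisynthetase complex had higher counts in PV-10 tumours. All 3 were above every PBS tumour in every PV-10 tumour in CPM, beside 22% of all genes, and 1 of 3, Eef1e1, was called higher, beside 3.17% of all genes. Eef1e1 had 51.5, 35.8 and 20.3 CPM in PV-10 tumours, against 9.17, 10.5 and 13.4 CPM in PBS tumours, a log2 change of 1.70 ± 0.36 (SE, n = 3 each, edgeR adjusted p = 0.0443). Aimp1 and Aimp2 had changes of 0.55 and 0.61 and were not called. These were -0.25 and -0.20 on log2(TPM + 1), beside a median of -0.213 over all genes. With the effective length trend removed they were -0.02 and -0.12, beside -0.0972. In TPM the groups overlapped for all 3 scaffolds, with 12.5, 7.77 and 7.10 TPM of Eef1e1 in PV-10 tumours, against 5.97, 8.39 and 11.1 TPM in PBS tumours.

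Of 12 proteins that act on tRNAs before or after charging, 3 were called higher by edgeR and none lower, beside 3.17% and 1.92% of all genes. DESeq2 called 3 higher and 1 lower, beside 21.7% and 8.63%. At an unadjusted p under 0.05, 4 were higher and 1 lower, beside 15.6% and 14.5%. The median change of the 12 was 0.397, and it was -0.416 and -0.498 on the TPM scales and -0.322 with length and GC trends removed. Over all genes the medians were 0.303, -0.213, -0.427 and -0.297 in the same order. Prorsd1, which resembles a domain that edits mischarged prolyl-tRNA in bacteria, had 22.3, 19.2 and 8.65 CPM in PV-10 tumours, against 4.35, 5.38 and 4.23 CPM in PBS tumours, a log2 change of 1.84 (edgeR adjusted p = 0.0443). Ptrh2, a peptidyl-tRNA hydrolase, had a change of 1.49 (edgeR adjusted p = 0.0443), and Trnt1, which adds the CCA end to which amino acids are joined, one of 1.17 (edgeR adjusted p = 0.0462). PV-10 tumour 3 was the lowest of its group in all 3 genes and still above the PBS tumours. These calls, like that of Eef1e1, held with PV-10 tumour 3 left out and were lost with any 1 of the other tumours left out. With length and GC trends removed the change of Trnt1 was 0.02, beside a median of -0.297 over all genes.

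The 4 eIF2 kinases had changes below 0. None was called by edgeR or DESeq2, beside 5.09% and 30.3% of all genes, with 1 lower at an unadjusted p under 0.05, beside 14.5%. Eif2ak1, the heme-regulated kinase, had a change of -0.75, and Eif2ak2, the kinase of double-stranded RNA, one of -0.17. Of the 21 genes of ATF4 and its amino acid supply targets, 18 had a change below 0, beside 41.5% of all genes, and none was called by edgeR. At an unadjusted p under 0.05, 11 were lower and 1 higher, beside 14.5% and 15.6% of all genes, and DESeq2 called 8 lower and 1 higher, beside 8.63% and 21.7%. Their median change was -0.754, against -0.652 for the cytosolic synthetases and 0.303 for all genes. Atf4 itself had 203, 196 and 254 CPM in PV-10 tumours, against 259.5, 231 and 212 CPM in PBS tumours, which overlapped, and Psat1, an enzyme of serine synthesis, had a change of 0.31.

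Among the elongation factors of translation, 1 of 5 cytosolic ones was called higher, Eef1b2, at 1.53 (edgeR adjusted p = 0.0443), beside 3.17% of all genes. Of the 4 mitochondrial elongation factors none was called by edgeR or DESeq2, with 1 lower at an unadjusted p under 0.05, beside 14.5% of all genes. Tufm and Gfm1 had changes of -0.92 and -0.37. Of the 20 mitochondrial ribosomal proteins 2 were called higher, beside 3.17% of all genes. These were Mrpl12 at 1.86 and Mrpl13 at 1.45 (edgeR adjusted p = 0.0451 and 0.0462). The list of 20 had a median change of 0.459, which was -0.311 and -0.347 on the TPM scales and -0.106 with length and GC trends removed. The medians of all genes were 0.303, -0.213, -0.427 and -0.297 in the same order. The calls of Eef1b2, Mrpl12 and Mrpl13 were also lost with any 1 tumour other than PV-10 tumour 3 left out. None of the 14 interferon-gamma response genes was called by edgeR, beside 5.09% of all genes, and their median was -0.0424. At an unadjusted p under 0.05, 1 was higher, beside 15.6%, and DESeq2 called 1, beside 30.3%. Cxcl9, a chemokine of that response, had a change of 0.18 ± 0.80 (SE, n = 3 each), below 0 on both TPM scales.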

How the data were processed

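Total RNA of 6 tumours was sequenced, 3 per group. Per the labels' protocols, 100 ng of RNA went into strand-specific libraries read in pairs of 100 bases, adapters were found with BBMerge 37.02, and genes were annotated with Gencode M21. Per the submitters' processing notes, cutadapt 1.8.1, STAR 2.7.7a, RSEM 1.3.0, DESeq2 and build mm10 were used. The deposited expected counts are RSEM estimates given as whole numbers, not normalized, and the deposited TPM values are scaled per length to a fixed total in each tumour. Reads that match near copies are divided by RSEM, which leaves such genes uncertain.

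The test was edgeR 4.0.16 (R 4.3.3, robust quasi-likelihood fit, default expression filter, TMM scaling), without covariates, on all 22056 genes passing the filter, with Benjamini-Hochberg adjustment. The biological coefficient of variation was 0.777, and 3 counts correspond to 0.029 to 0.0821 CPM. The labels do not state that the tumours of a group came from separate mice, and p-values measure the spread between these samples. Exon overlaps and gene positions come from Gencode M21, except that the promoter stretches and the starts they are counted from are those of the RefSeq windows. Of the 35 genes, 9 share exon bases with another protein-coding gene, 6 of them over 5% of their own.

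The members, gene lists, motifs and rule for named genes were chosen with earlier results of these data known. All 35 are named, with values in every tumour for called members and then the largest changes until 14 were reached. The other lists give up to 4 called genes, or the 2 most abundant, of which 1 gene is not reported here, nor is 1 promoter stretch. Values of Sars, Lars2, Aimp1, Aimp2 and the epithelial genes were added after they were seen. Alternatives were DESeq2 1.42.0, other scalings and filters, limma 3.58.1 (voom, and log2 TPM after adding 1 or 0.1), removal of trends on length and GC (splines with 5 degrees of freedom), a replicate block, each tumour left out, and PV-10 tumour 3 alone.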

Additional observations from a re-analysis of the deposited data

How the results depend on the processing

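The main test called 1122 genes. Alternatives called 8213 with DESeq2, 2537 with RLE scaling, 2441 with library size alone, 4664 with no filter, 2705 with a mean count of at least 50, 2805 among protein-coding genes, 2097 with limma-voom, 2917 and 3175 on log2(TPM + 1) and log2(TPM + 0.1), 0 with the effective length trend removed and 2 with length and GC. PV-10 tumour 3 alone gave 18 genes, and leaving out 1 tumour gave 1 to 11399. Of the 35 synthetases 2 were called, against 13 with DESeq2, 6 with library size alone, 8 with no filter, 4 among protein-coding genes, 12 on either TPM scale, 0 with either trend removed or with PV-10 tumour 3 alone, and 0 to 20 with 1 tumour left out. Cytosolic counts were 9 with DESeq2, 4 with library size alone, 6 with no filter, 10 on either TPM scale, 0 with either trend removed or with PV-10 tumour 3 alone, and 0 to 16 with 1 tumour left out. Mitochondrial counts were 4 with DESeq2, 1 with RLE scaling, 2 with library size alone, 2 with no filter, 1 with a mean count of at least 50, 1 among protein-coding genes, 2 on either TPM scale, and 0 to 4 with 1 tumour left out. The replicate block called 2872 genes and 5 synthetases, all 5 cytosolic; deviations of same-numbered tumours correlated at -0.0486, 0.0711 and 0.0722, so the numbers were not taken as pairs.

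The cytosolic median was -1.27 and -1.39 on the 2 TPM scales, -1.06 with length and GC trends removed and -0.308 with PV-10 tumour 3 alone. The mitochondrial median was -0.552 and -0.734 on the TPM scales and -0.532 with length and GC trends removed. The difference between the medians was 0.29 with PV-10 tumour 3 alone. Of 735 values of single synthetases under 21 alternatives, 591 kept direction and side of the threshold, 66 newly passed it, 16 lost it and 62 turned sign, in 14 genes; 15 of the 17 lower cytosolic genes never turned. The cause was not tested. The lowest synthetase level in any tumour, 1.77 CPM for Pars2, lay above the 0.0821 CPM that 3 counts give in the shallowest library.

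With DESeq2, the sign turned for Mars2 at 0.0222. With RLE scaling, the sign turned for Mars2 at 0.0286. With library size alone, the sign turned for Cars2 at -0.077, Wars2 at -0.0912 and Yars2 at -0.0333. With no filter, the sign turned for Cars2 at -0.0625, Wars2 at -0.0988 and Yars2 at -0.0194. With a mean count of at least 50, the sign turned for Lars2 at 0.0297, Mars2 at 0.0788 and Atf4 at 0.0477. With protein-coding genes alone, the sign turned for Lars2 at 0.006, Mars2 at 0.0528 and Atf4 at 0.0231. With limma-voom, the sign turned for Cars2 at -0.0567, Wars2 at -0.00161 and Cxcl9 at -0.273. On log2(TPM + 1), the sign turned for Dars at -0.176, Sars at -0.645, Cars2 at -0.748, Nars2 at -0.343, Pars2 at -0.123, Wars2 at -0.303, Yars2 at -0.506, Psat1 at -0.553 and Cxcl9 at -1.44. On log2(TPM + 0.1), the sign turned for Dars at -0.18, Sars at -0.658, Cars2 at -0.99, Nars2 at -0.547, Pars2 at -0.236, Wars2 at -0.433, Yars2 at -0.686, Psat1 at -0.562 and Cxcl9 at -1.54. With the effective length trend removed, the sign turned for Cars2 at -0.43, Lars2 at 0.265, Mars2 at 0.997, Yars2 at -0.207, Eif2ak2 at 0.174 and Cxcl9 at -0.184. With length and GC trends removed, the sign turned for Dars at -0.432, Sars at -0.167, Cars2 at -0.688, Nars2 at -0.174, Pars2 at -0.0294, Rars2 at -0.0873, Wars2 at -0.359, Yars2 at -0.601, Psat1 at -0.497 and Cxcl9 at -0.362. With the replicate block, the sign turned for Cars2 at -0.0322 and Cxcl9 at -0.0777. With PV-10 tumour 3 alone, the sign turned for Kars at 0.0917, Qars at 0.0669, Cars2 at -0.393, Ears2 at 0.141, Lars2 at 0.741, Mars2 at 0.0511, Nars2 at -0.0548, Sars2 at 0.013, Wars2 at -0.0615, Eif2ak2 at 0.271, Atf4 at 0.127 and Psat1 at -0.0198. With 1 tumour left out the sign turned within -0.263 to 0.191 for Cars2, -0.771 to 0.349 for Lars2, -0.175 to 0.0523 for Mars2, -0.171 to 0.0985 for Wars2, -0.208 to 0.33 for Yars2 and -1.2 to 0.873 for Cxcl9.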
